A study of Mus musculus with 14 samples.

Results

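CCL2, CCL7, CCL8 and CCL12 are mouse chemokine genes grouped here under the name of ligands of CCR2, a receptor of monocytes. They were followed across genotypes in macrophages sorted from the mouse large intestine. The 4 genes were chosen by name, as monocyte-attracting members of the chemokine cluster on chromosome 11, out of 24982 genes with deposited counts. All 4 passed the filter on low counts, as did 13136 genes in all. RNA was sequenced from 14 libraries, each of which held the lamina propria macrophages of the colon and cecum of a single C57BL/6 mouse aged 5 weeks. The sort kept live CD45+ CD64+ CD11b+ cells that were Ly6G-, CD103-, Ly6C- and MHCII+. Such a gate is meant to leave out Ly6C+ newly arrived monocytes, but RNA of monocyte markers was still detected in the libraries, as given below. Every mouse carried *Cdcs1*, a locus that raises susceptibility to colitis, and the genotypes were *Cdcs1* alone (WT), *Cdcs1* with *Il10ra* -/- (IL10RAKO), *Cdcs1* with *Il10ra* -/- and *Ccr2* -/- (DKO), and *Cdcs1* with *Ccr2* -/- (CCR2KO). The null alleles were present in every cell of the animal and not in macrophages alone, and mice without *Il10ra* have spontaneous colitis, so loss of the receptor in the macrophage and an inflamed tissue cannot be told apart in these groups. Tests used 4 WT, 4 IL10RAKO and 4 DKO mice, while WT mouse 11 and the lone CCR2KO mouse, mouse 6, entered no test and are given beside the results.

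CCL2, CCL7, CCL8 and CCL12 are small secreted proteins of the CC family, named after a pair of adjacent cysteines. CCL2, CCL7 and CCL12 bind CCR2, a G protein-coupled receptor on Ly6C-high monocytes. The CCL2 to CCR2 axis is best known for letting these monocytes leave the bone marrow and enter inflamed tissue, including the colon. CCL2 is the classical monocyte attractant, CCL7 binds further receptors besides CCR2, and CCL12 is a mouse CCR2 ligand without a direct human counterpart. Mouse CCL8 signals through CCR8, and whether it acts through CCR2 was not tested here. Macrophages make these chemokines, and so do fibroblasts and endothelial cells.

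The genes lie side by side. On GRCm38 chromosome 11, all on the plus strand, CCL2 (ENSMUSG00000035385) spans 82035571 to 82037453, CCL7 spans 82045712 to 82047525, CCL12 spans 82101845 to 82103400 and CCL8 spans 82115185 to 82116799. The start sites of CCL7, CCL12 and CCL8 are 10.1, 66.3 and 79.6 kb from that of CCL2, and CCL11, the eosinophil attractant eotaxin, lies between CCL7 and CCL12. Exons of the members total 1138 bases for CCL2, 801 for CCL7, 537 for CCL12 and 511 for CCL8. The longest identical stretch between transcripts of any pair of members was 23 bases, shared by CCL2 and CCL7, and how the authors' counting treated reads that align to several places is not given in the sources used here.

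CCL12 and CCL8 are next to each other, and because their transcripts behaved differently between genotypes, the 250 bases before each start are shown. They are RefSeq sequences of GRCm38.p6, on the plus strand, of chr11:82101595-82101844 for CCL12 and chr11:82114935-82115184 for CCL8, and capitals mark the TATA box. Entries matched for 2 of the 4 members, CCL12 and CCL8.
CCL12: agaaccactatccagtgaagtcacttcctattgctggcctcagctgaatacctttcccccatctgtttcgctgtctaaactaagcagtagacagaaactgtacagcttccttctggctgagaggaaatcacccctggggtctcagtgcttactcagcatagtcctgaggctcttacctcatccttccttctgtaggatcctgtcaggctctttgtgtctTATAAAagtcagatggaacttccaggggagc
CCL8: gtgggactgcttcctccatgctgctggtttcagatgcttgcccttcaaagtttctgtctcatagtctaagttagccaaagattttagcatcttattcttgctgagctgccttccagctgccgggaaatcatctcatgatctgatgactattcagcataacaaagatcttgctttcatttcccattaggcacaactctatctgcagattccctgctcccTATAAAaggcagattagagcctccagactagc
Each window held 1 match to TATAAA, searched on both strands, which 12.4% of 32851 RefSeq windows of the same length also held. No match was found in either window to the AP-1 motif TGANTCA or to the kappaB motif, which were present in 6.75% and 3.90% of all windows. In a global alignment, 54.5% of 266 columns were identical between the CCL12 and CCL8 windows, and the longest identical stretch had 8 bases.

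Per length of transcript, CCL7 and CCL2 were the most abundant members in WT macrophages, and in both genotypes without *Il10ra* CCL2, CCL7 and CCL12 were lower while CCL8 was not detectably different. Levels are given as CPM, counts relative to the size of their library, where library sizes were first scaled with the TMM method of edgeR, and genotypes were compared with the edgeR quasi-likelihood test with p-values adjusted by the Benjamini-Hochberg method over all tested genes. Between IL10RAKO and WT, 3 of the 4 members passed an adjusted p of 0.05 in the lower direction and 0 in the higher, against a background of 7.10% of tested genes called lower and 8.70% called higher. Between DKO and WT, the same 3 members were called lower and 0 higher, against 9.22% of genes called lower and 9.23% called higher. For these 3 members the knockout mice were all below the WT mice in both comparisons, a pattern that 8.78% of genes showed in IL10RAKO and 11.0% in DKO. The median log2 fold change of the 4 members was -2.03 in IL10RAKO and -3.27 in DKO, and that of all tested genes was -0.07 and -0.06. Both comparisons use the same WT mice and so are not independent of each other.

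**Figure D1:**
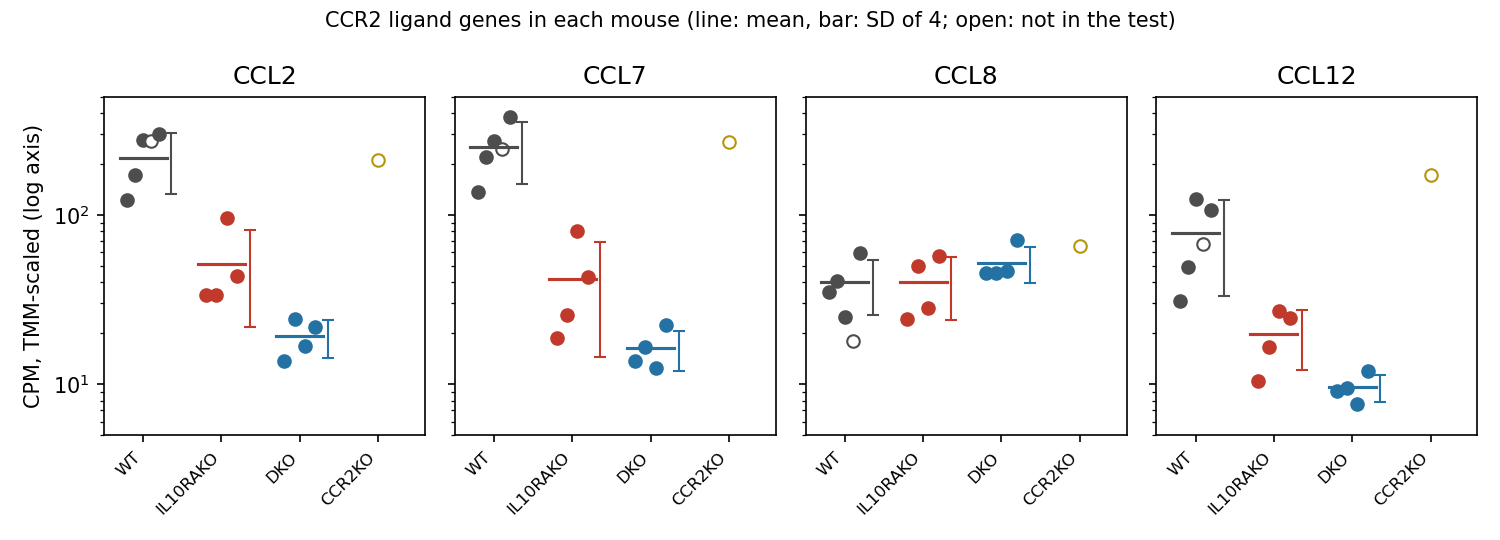
Level of each CCR2 ligand gene in CPM (TMM-scaled, log axis) in each mouse by genotype, with the mean as a line and the SD of 4 mice as a bar; open circles are WT mouse 11 and CCR2KO mouse 6, which entered no test. WT mice sit above all IL10RAKO and DKO mice for CCL2, CCL7 and CCL12, while the genotypes overlap for CCL8.

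CCL2 was at 122 CPM in WT mouse 4, 171 in mouse 5, 276 in mouse 10 and 301 in mouse 13. In IL10RAKO it was at 33.8, 33.7, 95.6 and 43.3 CPM in mice 1, 2, 7 and 8. In DKO it was at 13.7, 24.4, 16.7 and 21.7 CPM in mice 3, 9, 12 and 14. The genotypes formed 3 steps without overlap, and IL10RAKO mouse 7 stood highest in its group. The mean CPM of CCL2 was 218 ± 85.0 for WT, 51.6 ± 29.7 for IL10RAKO and 19.1 ± 4.82 for DKO (SD, 4 mice each), from 238 or more reads in every library. It was 4.22-fold lower in IL10RAKO than in WT (log2 fold change -2.08, standard error 0.365, 95% confidence interval -2.86 to -1.29, edgeR adjusted p = 0.00137). In DKO it was 11.4-fold lower than in WT (log2 fold change -3.51, standard error 0.389, edgeR adjusted p = 2.83e-05).

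CCL7 was at 136 CPM in WT mouse 4, 220.3 in mouse 5, 274 in mouse 10 and 376 in mouse 13. In IL10RAKO it was at 18.8, 25.7, 79.9 and 42.9 CPM in mice 1, 2, 7 and 8. In DKO it was at 13.7, 16.6, 12.4 and 22.3 CPM in mice 3, 9, 12 and 14. CCL7 followed the order of CCL2 between genotypes, again with IL10RAKO mouse 7 at the top of its group, but the highest DKO mouse passed the lowest IL10RAKO mouse. CCL7 was 6.01-fold lower in IL10RAKO (log2 fold change -2.59, standard error 0.415, edgeR adjusted p = 6.64e-04) and 15.4-fold lower in DKO (log2 fold change -3.95, standard error 0.442, edgeR adjusted p = 3.09e-05) than in WT. Its mean was 252 ± 100.3, 41.8 ± 27.3 and 16.3 ± 4.37 CPM for WT, IL10RAKO and DKO (SD, 4 mice each).

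CCL12 was at 30.8, 49.4, 125 and 107 CPM in WT mice 4, 5, 10 and 13. The highest WT mouse was 4.05 times the lowest, a wider range than for the other 3 members in WT. In IL10RAKO it was at 10.5, 16.7, 27.1 and 24.7 CPM in mice 1, 2, 7 and 8, and in DKO at 9.17, 9.52, 7.66 and 11.9 CPM in mice 3, 9, 12 and 14. The lowest WT mouse, at 30.8 CPM, was only just above the highest IL10RAKO mouse, at 27.1. The log2 fold change from WT was -1.98 in IL10RAKO (standard error 0.398, 95% confidence interval -2.83 to -1.13, edgeR adjusted p = 0.00353) and -3.02 in DKO (standard error 0.417, edgeR adjusted p = 1.74e-04).

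CCL8 took a different course. It was at 35, 40.5, 24.9 and 59.5 CPM in WT mice 4, 5, 10 and 13. In IL10RAKO it was at 24.4, 49.8, 28.2 and 57.4 CPM in mice 1, 2, 7 and 8, and in DKO at 45.3, 45.5, 46.6 and 70.7 CPM in mice 3, 9, 12 and 14. All 3 genotypes overlapped, with means of 40.0 ± 14.5, 39.9 ± 16.1 and 52.0 ± 12.5 CPM (SD, 4 mice each). The interval of the log2 fold change from WT ran from -0.65 to 0.65 in IL10RAKO, and in DKO the log2 fold change was 0.38 with an interval of -0.27 to 1.03 (edgeR adjusted p = 0.422). A change of CCL8 in either direction within these bounds could not be seen with 4 mice, but a fall as large as that of CCL2 lies outside them.

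**Figure D2:**
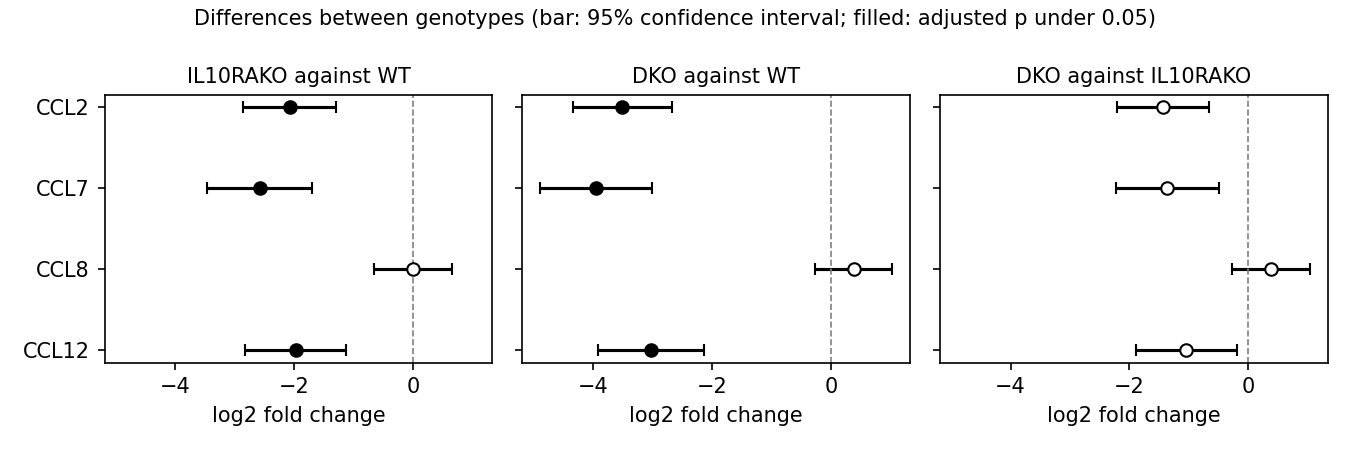
Log2 fold change of each member between genotypes from the edgeR fit of 12 libraries, with 95% confidence intervals as bars and filled circles where the adjusted p was under 0.05. CCL2, CCL7 and CCL12 lie below 0 in the 3 panels and pass the test against WT only, while the interval of CCL8 spans 0 in each panel.

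Whether loss of CCR2 on top of IL10RA went with a further difference in the members was addressed by DKO against IL10RAKO. The paper reports milder colitis in DKO than in IL10RAKO mice, so loss of CCR2 and milder inflammation cannot be told apart here. Of the 4 members, 0 passed the adjusted threshold, where 0.0305% of genes were called lower and 0.0152% higher. At an unadjusted p under 0.05, 3 members were lower in DKO, against 1.91% of genes. The log2 fold change of CCL2 was -1.43 (standard error 0.362, 95% confidence interval -2.21 to -0.66, edgeR adjusted p = 0.705), and CCL2 ranked 26 of all tested genes by its unadjusted p. DESeq2 gave nearly the same change, -1.42, with an adjusted p of 0.0256, so this call depends on the tool, and DESeq2 called 24 genes in this comparison where edgeR called 6. CCL7 had -1.36 (95% confidence interval -2.23 to -0.50, edgeR adjusted p = 1.0) and CCL12 had -1.04 (95% confidence interval -1.89 to -0.20, edgeR adjusted p = 1.0). CCL8 had 0.38 (95% confidence interval -0.27 to 1.03). DKO mice were all below the IL10RAKO mice for 1 member, CCL2, a pattern shown by 1.28% of genes. IL10RAKO mouse 7 bore on these values, since without it the log2 fold changes were -0.93 for CCL2, -0.82 for CCL7 and -0.83 for CCL12.

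Because CCL8 stayed in place while the others were lower, the make-up of the group changed. Summed over the 4 members, levels of WT, IL10RAKO and DKO were 587 ± 230, 153 ± 61.4 and 97.0 ± 20.7 CPM (SD, 4 mice each). Of the members' reads, CCL8 contributed 7.45 ± 3.02%, 28.4 ± 11.8% and 53.6 ± 4.14% in the same order. Per mouse its share was 3.56% to 10.8% in WT, 12.2% to 39.5% in IL10RAKO, where mouse 7 was the lowest, and 47.4% to 55.9% in DKO. The 3 ranges did not overlap. The widest 95% Wilson interval of a mouse in DKO was 53.0% to 58.7%, for mouse 12, and it covers counting error only, since the reads carried no molecular identifiers. CCL2 made up 37.1%, 33.1% and 19.8% of the reads on average in WT, IL10RAKO and DKO, and CCL7 made up 42.9%, 25.5% and 16.6%.

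**Figure D3:**
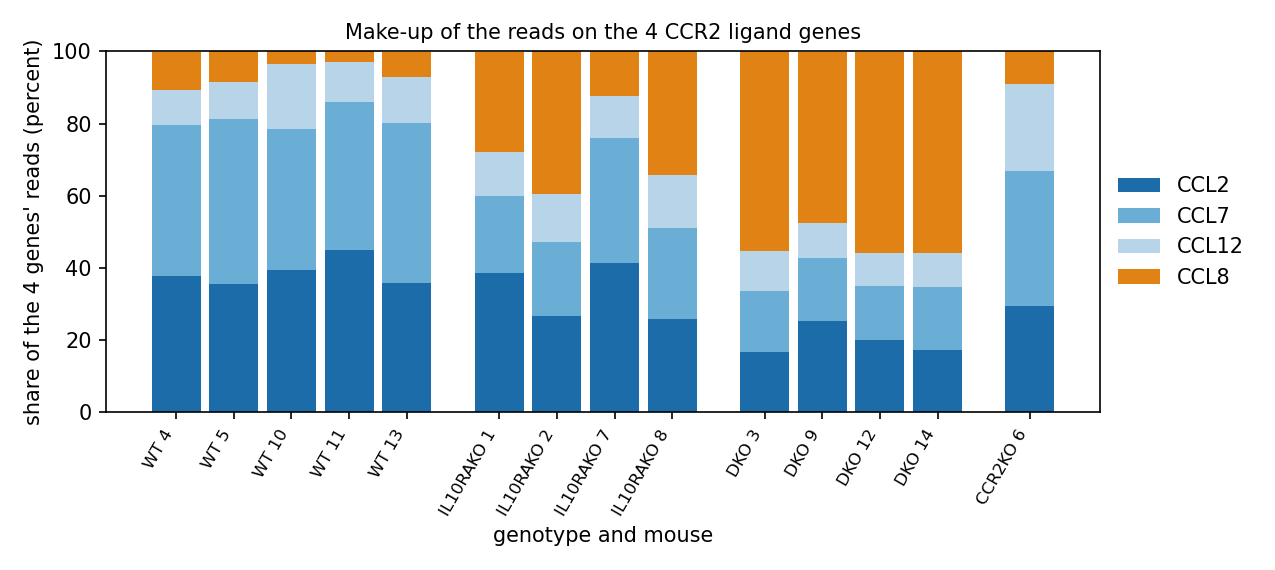
Percent of the reads on the 4 CCR2 ligand genes that fell on each gene, 1 bar per mouse ordered by genotype. The CCL8 part, in orange, is 3.56% to 10.8% in the 4 tested WT mice and 47.4% to 55.9% in DKO, with IL10RAKO between them.

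Levels per kilobase of exon, which allow the genes to be compared with each other, gave CCL7 the first place in WT at 314 CPM per kb, followed by CCL2 at 191, CCL12 at 145 and CCL8 at 78.2. Per mouse, CCL8 was last in 3 of the 4 WT mice and last but one in the other, mouse 4, where CCL12 was lower. In DKO the order by mean was CCL8 at 102 CPM per kb, CCL7 at 20.3, CCL12 at 17.8 and CCL2 at 16.8, and CCL8 was first in 4 of 4 mice. The other 3 members lay close together there and changed places from mouse to mouse. Their order rests on the length used, which counts the bases of all annotated exons of a gene. In CPM without that length, the DKO means were 19.1 for CCL2, 16.3 for CCL7 and 9.57 for CCL12. In IL10RAKO CCL8 was first in 3 of 4 mice, and in mouse 7 it stood behind CCL7 and CCL2.

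CCL2, CCL7 and CCL12 varied together from mouse to mouse. Over the 12 tested libraries, Pearson's r of log2 CPM was 0.986 between CCL2 and CCL7, 0.962 between CCL2 and CCL12 and 0.969 between CCL7 and CCL12, and after subtracting the mean of each genotype it was 0.907, 0.802 and 0.844. CCL8 had r of -0.32 with CCL2, -0.21 with CCL7 and -0.20 with CCL12, and -0.04, 0.25 and 0.22 within genotypes. These are descriptions over mice that share their genotype, and much of the r over all libraries is the difference between genotypes. The ratio of CCL2 to CCL7 reads was 0.872 ± 0.105 for WT, 1.33 ± 0.335 for IL10RAKO and 1.20 ± 0.251 for DKO (SD, 4 mice each), and the DKO range of 0.973 to 1.47 overlapped both the WT range of 0.778 to 1.01 and that of IL10RAKO.

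The genes most like CCL2 over the 12 libraries were CD93 (r = 0.984), a lectin-like receptor of endothelial and myeloid cells, SERPINB8 (0.973), a serine protease inhibitor, SELENOP (0.971), the selenium carrier selenoprotein P, MRC1 (0.966), the mannose receptor CD206 of resident macrophages, and PLXNA4 (0.965), a semaphorin receptor subunit. For CCL7 they were CD93 (0.982), SERPINB8 (0.982), PF4 (0.975), the chemokine platelet factor 4, SELENOP (0.975) and CES1D (0.973), a carboxylesterase. For CCL12 they were SMARCD3 (0.984), MS4A7 (0.962), TMLHE (0.954), MYL9 (0.953) and SERPINB8 (0.949). SERPINB8 was thus in the first 5 for each of the 3 members that were lower. Some of these genes were low, so that few reads lie behind their r. SMARCD3 had means of 2.16, 0.578 and 0.243 CPM in WT, IL10RAKO and DKO, and was not called in IL10RAKO (edgeR adjusted p = 0.0621). CES1D had means of 0.213 CPM in IL10RAKO and 0.0494 in DKO, and PLXNA4 had 0.313 in DKO. For CCL8 the highest values were smaller, with OSBPL1A at 0.816, C1S1, a protease of the complement cascade, at 0.780, TBC1D13 at 0.767, GM41410 at 0.764 and MIDN at 0.763.

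Reads on CCL11, which lies between CCL7 and CCL12, numbered 44 to 218 per WT mouse, 2 to 14 per IL10RAKO mouse and 2 to 8 per DKO mouse. Its log2 fold change was -4.00 in IL10RAKO (edgeR adjusted p = 0.00367) and -4.17 in DKO (edgeR adjusted p = 0.00252). Its level in WT was only 2.10 to 14.5 CPM, and WT mouse 11 had 0 reads, a level that 3 reads would put under 0.220 CPM. Along the cluster the genes from CCL2 to CCL12 were therefore lower in both knockouts, and CCL8, the last tested gene along it, was not called. CCL1, which the annotation places beyond CCL8 on the minus strand, had 0 to 11 reads and was not tested.

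**Figure D4:**
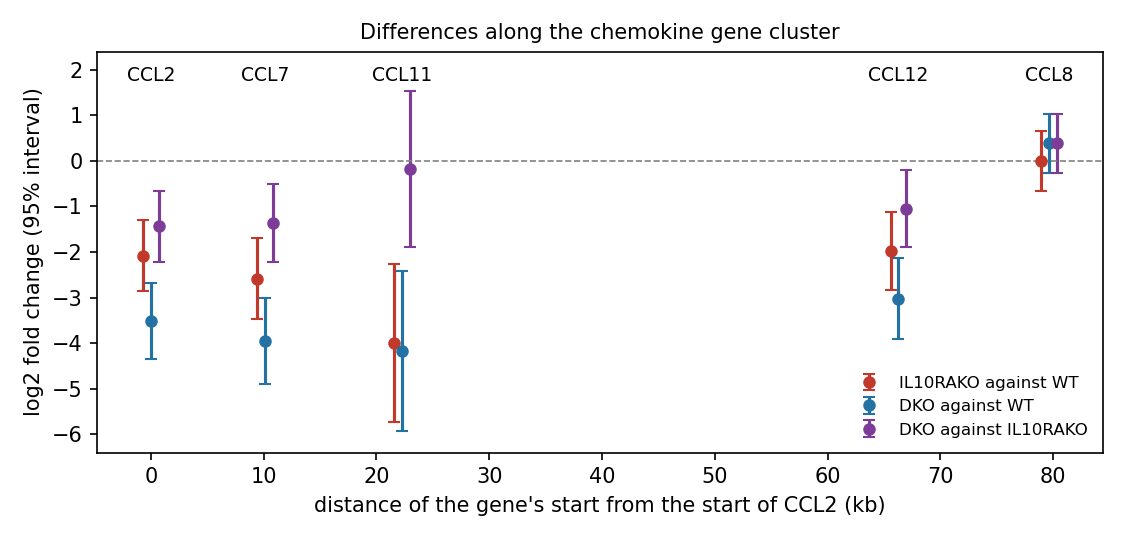
Log2 fold change with its 95% confidence interval for the tested genes of the cluster against the distance of each gene's start from that of CCL2 in kb, in colour by comparison. CCL2, CCL7, CCL11 and CCL12 lie below 0 against WT, and the intervals of CCL8, at 79.6 kb, span 0.

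Of the receptors, CCR2 was at 593 ± 80.0 CPM in WT mice and 476 ± 128 in IL10RAKO mice (log2 fold change -0.32, edgeR adjusted p = 0.328), and at 5.67 ± 1.22 in DKO (SD, 4 mice each). IL10RA had means of 284, 7.41 and 5.31 CPM in WT, IL10RAKO and DKO, and both targeted genes were low in the libraries labelled as their knockouts. CCR1, a receptor that CCL7 shares with other CC chemokines, had means of 282 ± 55.2, 625 ± 131 and 313 ± 33.7 CPM in WT, IL10RAKO and DKO. CCR1 rose in IL10RAKO (log2 fold change 1.15, edgeR adjusted p = 6.79e-04) but was not called in DKO (0.15, edgeR adjusted p = 0.620), and the DKO to IL10RAKO difference of -0.998 did not pass with edgeR (adjusted p = 0.125) but did with DESeq2 (adjusted p = 3.64e-04), with no DKO mouse reaching the lowest IL10RAKO mouse. CCR8, a receptor of mouse CCL8, and CCR3 had mean levels under 3 CPM and did not pass in any comparison.

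Decoy receptors take up chemokines without signalling, and CCRL2 is a related surface protein that binds chemerin. CCRL2 rose from 847 ± 123 CPM in WT to 4006 ± 925 in IL10RAKO (log2 fold change 2.24, edgeR adjusted p = 6.05e-06) and 3686 ± 767 in DKO (2.12, edgeR adjusted p = 8.53e-06). ACKR1, the Duffy receptor of endothelial cells and red cells, had 0 to 208 reads per WT mouse, 0 to 3 per IL10RAKO mouse and 2 to 12 per DKO mouse. It was called lower in both (edgeR adjusted p = 0.00854 and 0.0378), although its ranges overlapped because 1 tested WT mouse had no read. WT mouse 11 and CCR2KO mouse 6, which entered no test, also had 0 reads on ACKR1. ACKR2 and ACKR4 did not pass in any comparison with edgeR, and DESeq2 called ACKR2 lower in IL10RAKO (adjusted p = 0.0326).

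Genes that carry the signal of CCR2 inside the cell (G protein subunits, arrestins, receptor kinases, PI3K gamma, the RAC and DOCK2 pathway) did not pass the test. Of 22 tested, 0 passed with edgeR in each of the 3 comparisons, while 1, 2 and 0 had an unadjusted p under 0.05 in IL10RAKO against WT, DKO against WT and DKO against IL10RAKO, and as many were called by DESeq2. In the same order their median log2 fold changes were 0.05, 0.02 and 0.01. Their log2 fold changes from WT lay between -0.70 and 0.35 in IL10RAKO and between -0.71 and 0.46 in DKO.

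Genes known to induce or restrain CCL2 transcription and mRNA rose more often than they fell. Of 26 tested, 13 rose and 1 fell in IL10RAKO, and 13 rose and 2 fell in DKO, while 0 passed between DKO and IL10RAKO with edgeR or DESeq2 and 1 had an unadjusted p under 0.05. IL6, an inflammatory cytokine, had log2 fold changes of 4.15 and 4.09 from WT in IL10RAKO and DKO (edgeR adjusted p = 7.94e-06 and 8.17e-06). IL1B had 2.14 and 1.79, and TLR2, which senses bacterial lipoproteins, had 1.79 and 1.73. JUN, a subunit of AP-1, was the gene that fell in both, with -0.89 and -1.16 (edgeR adjusted p = 0.00205 and 2.36e-04), and ATF3 fell in DKO with -1.09.

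Other CC chemokine genes gave a mixed picture. Of 12 on the list, 9 were tested, of which 2 rose and 2 fell in IL10RAKO and 2 rose and 3 fell in DKO. CCL5, a T cell attractant, had mean levels of 20.6, 592 and 443 CPM in WT, IL10RAKO and DKO. CCL6 and CCL9, a pair of related mouse chemokines that signal through CCR1, were lower in DKO with log2 fold changes of -1.95 (edgeR adjusted p = 1.82e-05) and -2.14 (edgeR adjusted p = 3.74e-04), and CCL6 was also lower in IL10RAKO with -1.10 (edgeR adjusted p = 0.00171). CCL24, another eotaxin, was lower in both against WT and was higher in DKO than in IL10RAKO (log2 fold change 2.33, edgeR adjusted p = 0.00906). In that last comparison edgeR called 1 of the 9 and DESeq2 called 3, adding CCL6 (-0.84, DESeq2 adjusted p = 0.0256) and CCL9 (-1.36, DESeq2 adjusted p = 0.0111), both lower in DKO, and 5 had an unadjusted p under 0.05 with edgeR. Falls from WT were thus not limited to the CCR2 ligands, and rises occurred in the same libraries.

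Markers of some other cell types moved with the genotypes. The defining macrophage markers were detected in every tested library, with summed levels between 4178 and 7793 CPM and overlapping ranges of the 3 genotypes. Of the 8, FCGR1 was higher in IL10RAKO than in WT, and in DKO MERTK was higher and ADGRE1 and CX3CR1 were lower than in WT. Of 8 markers of resident perivascular-type macrophages, 7 (LYVE1, CD209F, CBR2, FOLR2, MRC1, F13A1 and CD163) were lower in both knockouts, and the list summed to 1100 to 1422 CPM per WT mouse, 80.3 to 280 per IL10RAKO mouse and 76.0 to 109 per DKO mouse. In IL10RAKO mouse 2 CD209F was at 0 and in DKO mouse 12 LYVE1 was at 0. Of 6 fibroblast markers, 6 were lower in both knockouts, with sums of 294 to 577, 15.0 to 53.7 and 16.1 to 67.0 CPM in the same order, and none was at 0 in any tested library. Of 6 monocyte markers, 3 (HP, LY6C2 and PLAC8) were higher in both, although the sort was for Ly6C- cells. Their list summed to 130 to 190, 407 to 1367 and 661 to 896 CPM. CHIL3 was at 0 in WT mouse 5, and CHIL3 and VCAN were at 0 in IL10RAKO mouse 7. Of 5 tested neutrophil markers, 4 were higher in both, with sums of 2.70 to 11.9, 13.2 to 123 and 58.0 to 86.0 CPM, and S100A9 was at 0 in all tested WT mice. Endothelial markers summed to 77.6 to 235, 67.0 to 110 and 53.0 to 89.7 CPM, and of 5 tested 1 (TEK) was lower in IL10RAKO and 2 (PECAM1 and TEK) in DKO. Of 5 B cell markers, 0 were called with edgeR in any comparison. Of 4 tested T and NK cell markers, 0 were called in IL10RAKO and 1 (NKG7) was higher in DKO. Of 5 dendritic cell markers, XCR1 was higher in IL10RAKO and CD209A was lower in DKO. KIT, of 2 tested mast cell markers, was higher in both knockouts. The part of these cells in the differences of CCL2, CCL7 and CCL12 was not tested, and in bulk RNA fewer cells of a type and less RNA per cell cannot be told apart.

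Within genotypes the sums ran with the members in some mice and not in others. IL10RAKO mouse 7, which had the highest CCL2, CCL7 and CCL12 of its group, had the highest resident macrophage sum (280 CPM), the lowest monocyte sum (407) and a fibroblast sum of 21.6, in the middle of its group. The resident macrophage sums of IL10RAKO mice 7, 8, 1 and 2 (280, 170, 154 and 80.3 CPM) ran in the order of their CCL2. For mice 1 and 2, however, CCL2 was nearly the same (33.75 and 33.69 CPM), so their order carries little weight. CCL7 and CCL12 were lower in mouse 1 than in mouse 2. DKO mouse 14 had the highest fibroblast sum of the knockouts, at 67.0 CPM, and the highest resident macrophage sum in DKO, at 109. It had the highest CCL7 and CCL12 of the DKO mice. Its CCL2, at 21.7, was behind that of mouse 9, which had a resident macrophage sum of 86.6. WT mouse 4, lowest of the tested WT mice in CCL2, CCL7 and CCL12, also had their lowest fibroblast sum (294 CPM) and resident macrophage sum (1100). WT mouse 10 had one of the lower fibroblast sums in WT, at 301 CPM, with CCL2 at 276. Its resident macrophage sum of 1199 CPM was below that of WT mouse 5, at 1265, which had less CCL2. WT mouse 13 had the highest resident macrophage sum (1422 CPM) and the highest CCL2 of the tested WT mice. Between DKO and IL10RAKO, 0 markers of the 3 lists passed with edgeR, while of the resident macrophage list 4 had an unadjusted p under 0.05 and 1 was called by DESeq2, and of the other 2 lists 0 in either way. Epithelial markers summed to 982 CPM in WT mouse 10 and 44.5 CPM in the lowest WT mouse, and 0 of 6 epithelial markers were called with edgeR or DESeq2 (2 had an unadjusted p under 0.05, in IL10RAKO against WT).

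**Figure D5:**
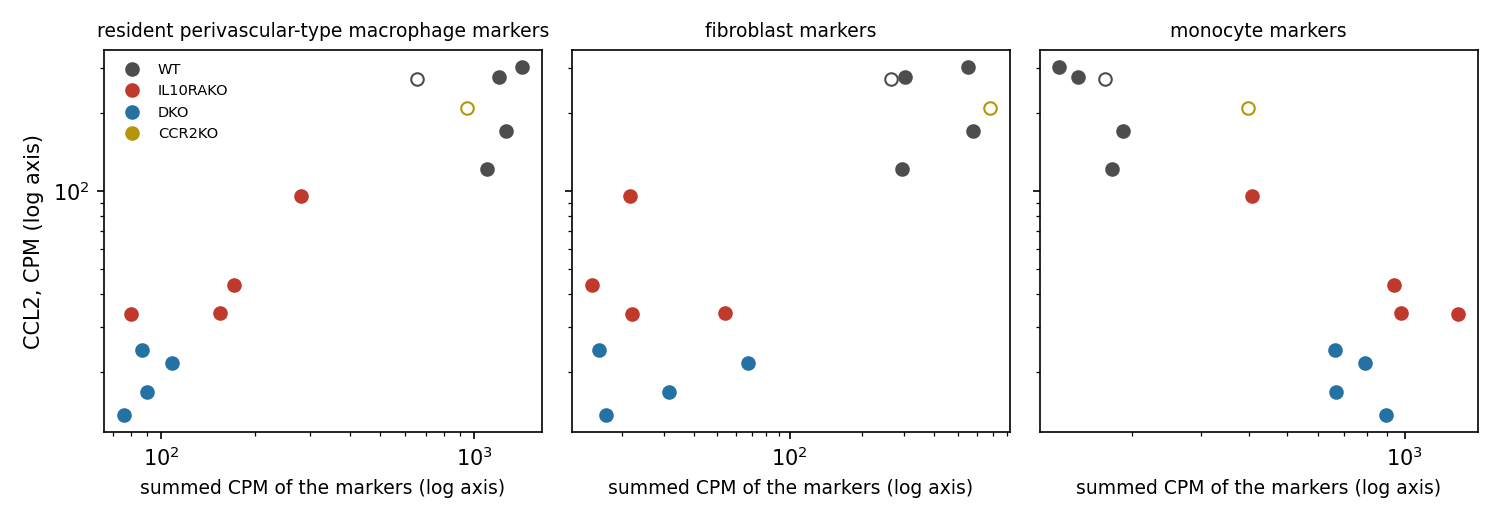
CCL2 in CPM against the summed CPM of markers of resident perivascular-type macrophages, fibroblasts and monocytes (log axes), 1 point per mouse coloured by genotype, with open circles for the mice in no test. WT mice are at the upper right for the macrophage and fibroblast lists and at the upper left for monocyte markers, and IL10RAKO mouse 7 is the red point nearest to WT for the macrophage and monocyte lists.

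WT mouse 11, which the authors' normalized table does not hold, had CCL2 at 272 CPM, CCL7 at 246, CCL8 at 18.1 and CCL12 at 67.0. Its CCL8 was below that of the other WT mice and the rest lay within their range. It had the fewest counted reads of all libraries (12153000) and 2497 CPM of epithelial markers. With it in the fit, CCL2, CCL7 and CCL12 had log2 fold changes of -2.14, -2.58 and -1.94 in IL10RAKO and -3.58, -3.94 and -2.98 in DKO, and CCL8 had 0.17 and 0.55, all on the same side of the threshold as without it.

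CCR2KO mouse 6 had no replicate and so gives no test. It had CCR2 at 4.30 CPM, as low as in DKO, with CCL2 at 210.3 CPM, CCL7 at 268, CCL8 at 65.2 and CCL12 at 173. CCL2 and CCL7 were within the WT range, and CCL8 and CCL12 were above it. CCL8 gave 9.11% of its members' reads (95% Wilson interval 8.65% to 9.58%), within the WT range. Its resident macrophage markers summed to 947 CPM, its fibroblast markers to 681 and its monocyte markers to 396.

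Total counted reads ranged from 13085287 to 21216468 in the 12 tested libraries, and 3 reads corresponded to 0.124 to 0.211 CPM. The least covered member value among them rested on 109 reads, of CCL12 in DKO. The SD of CCL12 over the 4 DKO mice was 18.4% of its mean, and the part of counting error in that spread was not tested. Without TMM scaling the median of all genes moved to -0.38 in IL10RAKO and -0.32 in DKO, and the share of called genes that were higher went from 55.1% to 23.8% and from 50.0% to 25.9%. CCL2, CCL7 and CCL12 were then at -2.38, -2.89 and -2.31 in IL10RAKO, still called, and CCL8 at -0.34, close to the shifted median.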

How the data were processed

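Live macrophages were sorted by the authors, cDNA was made with SmartSeq v4 and read pairs were aligned to mm10 with STAR 2.5.1b (processing notes of the submitters, which also list bcl2fastq 2.20 and edgeR 3.34.0). The authors deposited raw counts of reads per gene for 14 libraries and, for 12 of them, edgeR pseudocounts, a normalized score that fixed which mice entered the tests. The annotation and strand setting are not given in the sources used here. Per-sample columns left unused numbered 0.

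The test was run on the counts with edgeR 4.0.16 under R 4.3.3 (filterByExpr with a minimum count of 10, TMM, glmQLFit with the deviance of edgeR 3 and glmQLFTest, 12 libraries in 1 fit, Benjamini-Hochberg adjustment over 13136 genes). Alternatives were DESeq2 1.42.0, RLE size factors, library totals, other filters, robust dispersion, the deviance of edgeR 4, only the compared genotypes, WT mouse 11 added, limma 3.58.1 on the deposited pseudocounts (log2 with a pseudocount of 1) and each mouse left out. The fit was tested on simulated data. Correlations used log2 CPM with a prior count of 2. Intervals are 95%. Positions and exon lengths came from GENCODE vM21 (GRCm38) and windows before gene starts from RefSeq. Figures used Python 3.11.15 and matplotlib 3.10.9.

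Named were the members, the targeted genes, cluster neighbours, receptors, up to 4 genes of each pathway list with the smallest p in any comparison, and the 5 genes most correlated with each member. JUN and ATF3 were named after their values were seen, as were the marker genes called. Of the genes this rule names, 2 are not reported here. Members and lists were chosen with earlier results of these data known. The p-values measure the spread between single mice, and labels give no batch, sex or litter.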

Additional observations from a re-analysis of the deposited data

Results flagged for a closer look

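CCL8 in DKO mouse 14 stood apart from the other DKO mice, at 6.16 on the log2(CPM + 1) scale, with a gap to its nearest neighbour of 0.938 of the range of the 4 mice. It was 1 of 24 groups of 4 mice examined in which a mouse lay that far from the rest, and chance alone gives about 5% of groups. The log2 fold change of CCL8 between DKO and IL10RAKO was 0.20 without this mouse and 0.38 with it.

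The CCR2KO library, which entered no comparison, held CCL8 at 65.2 CPM and CCL12 at 172.5 CPM, both above all 4 tested WT mice. Without a second CCR2KO mouse the spread of this genotype is unknown.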

How the results depend on the processing

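The fall of CCL2, CCL7 and CCL12 from WT kept its direction and its side of the threshold under all 10 alternatives and with each of the 12 mice left out, with log2 fold changes in IL10RAKO of -2.56 to -1.88 for CCL2, -3.11 to -2.32 for CCL7 and -2.24 to -1.65 for CCL12 when a mouse was left out. CCL8 in IL10RAKO against WT, whose log2 fold change was close to 0, changed sign to 0.0083 with the deviance of edgeR 4, 0.0207 without a filter and 0.17 with WT mouse 11 added, and ranged from -0.22 to 0.26 with a mouse left out; it passed in none of these. Between DKO and IL10RAKO, 6 genes were called with edgeR and 24 with DESeq2 (33.3% and 12.5% of them higher), and 4 to 10 with a mouse left out, 10 of them without IL10RAKO mouse 2. DESeq2 was the alternative that called CCL2 there, with -1.42 (adjusted p = 0.0256), against adjusted p-values up to 1.0 under the others, and the cause was not tested. With a mouse left out its log2 fold change was -1.59 to -0.93. No paired analysis was possible because the groups hold different mice and the sample numbers are not shared between them. With 4 mice a genotype, intervals of CCL8 span about 1.3 log2 units, which limits what can be said of it more than read depth does.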
